A study of Dreissena polymorpha with 11 samples.

Results

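The sequences described here are the 104 on a zebra mussel array whose identifiers do not begin with EY, AM or AJ followed by digits, which are the 3 large identifier series of the array. They were chosen by identifier alone, with the probes for RXR left out, and hold 447 of 13654 probes and 104 of 3541 sequences. The zebra mussel, Dreissena polymorpha, is a freshwater bivalve. The arrays were hybridised with Cy3-labelled RNA of untreated animals, in a study of expression patterns across tissues and larvae. The groups are gill (2 arrays), digestive gland (2), male gonad (2), female gonad (1), half-body samples (2) and larvae 24 h after fertilisation. Labelling started from 500 ng of RNA for tissues and from 200 ng for larvae. Of the pair of larval arrays, larvae 1 had 131 probes well above background, against 4403 to 5687 on the others, and was left out, so that 10 arrays remain and larvae and female gonad have 1 array each.

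By the gender label, gill 1, digestive gland 1, half-body 1 and the female gonad came from females, and gill 2, digestive gland 2, half-body 2 and the male gonads from males. The source label disagrees, since it gives female for every gill and digestive gland array. Both half-body titles carry the number 1, so these samples are numbered here in the order of their accession. Whether the arrays of a group come from different animals is not stated, so p-values reflect the spread between these arrays alone, and that spread may be technical. Of the 10 arrays, digestive gland 1, half-body 1 and male gonad 1 were on slide 1, gill 1 was alone on slide 3, and slide 2 carried 1 array per group. The labelled sex of gill, digestive gland and half-body samples therefore cannot be told apart from the slide.

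In bivalves the gill is a ciliated sheet that moves water, takes up oxygen and collects food particles. The digestive gland breaks food down and is a main site of detoxification, and the gonads make eggs or sperm. One day after fertilisation the larvae are early swimming stages, so they hold developing tissues in place of the adult organs. None of the 104 identifiers is paired with a gene in the files, and none was found among 51549 RefSeq genes annotated on the assembly UMN_Dpol_1.0. The sequences are therefore called by their identifiers, no role is given to any of them, and labelled tissues could not be checked against marker genes. Probe sequences and genome positions were not used here.

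A value below is a log2 signal from which the 75th percentile of its array was subtracted, so that 0 marks this percentile, and a sequence takes the median over its probes. The percentile uses the 3090 probes that were well above background on each of the 10 arrays, and it lay between 18094 and 46447 signal units. The dimmest probe well above background lay between -12.84 and -11.17 on the different arrays, so that values near -12 are at the detection limit and have no order. A sequence counts as detected on an array where the scanner software called at least 50% of its probes well above background. Signals depend on the probe, so a value is compared between arrays and not between sequences. In whole tissue, fewer cells of a type and less RNA per cell cannot be told apart. No spot was saturated (0 saturated spots on each array).

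Most of the 104 sequences gave no signal that could be followed. Of them, 17 were detected on all 10 arrays (16.3%), 22 on some arrays and 65 on none (62.5%). The shares on no array were 53.3% of the 2864 EY sequences, 3.89% of the 437 AM sequences and 13.3% of the 135 AJ sequences. Those on all 10 arrays were 25.5%, 13.7% and 44.4%. No test of these shares was made, since the sequences share arrays and were put together by the designers of the array. Per array, the number of the 104 sequences detected ran from 20 on gill 1 to 32 on digestive gland 2.

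**Figure D1:**
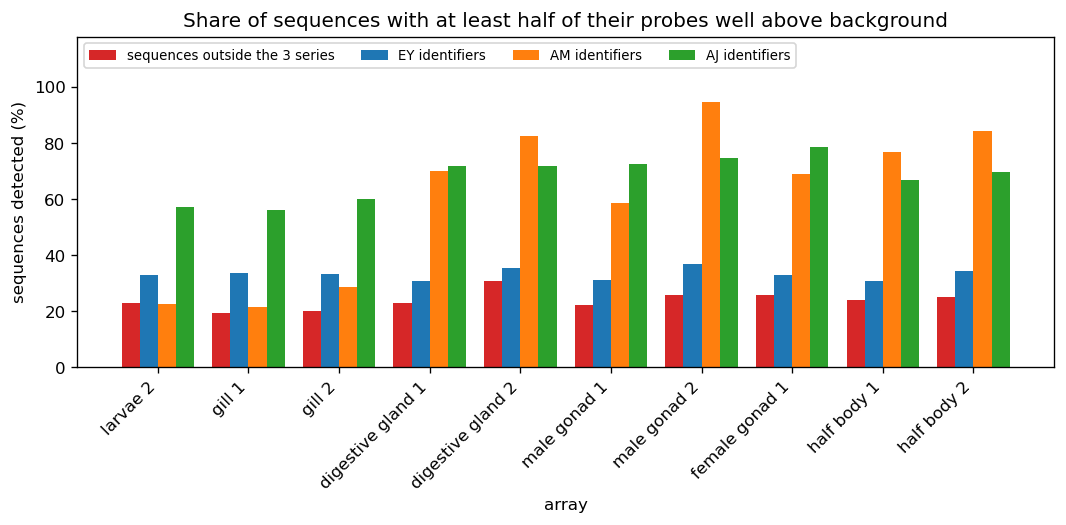
Share of sequences detected (percent, vertical axis) on each of the 10 arrays (horizontal axis), for the 104 sequences and for those with EY, AM and AJ identifiers; each bar is 1 array and has no error. The share of the 104 sequences lies between 19.2% on gill 1 and 30.8% on digestive gland 2, below the EY share on every array.

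Detection was uneven between identifier prefixes. Of the 17 AF sequences, 7 were detected on all 10 arrays and 4 on none. Of 19 EF sequences, 3 were detected on all arrays and 12 on none, and of 17 FK sequences 1 and 13. The 16 AB sequences had 0 detected on all arrays and 14 on none. All 6 EU sequences and all 5 sequences named by a number with a base range were detected on no array. The 7 AY sequences were split, with 3 on all arrays and 4 on none, while of 5 DQ sequences only 1 was detected on none. The 4 U sequences had 1 on all arrays and 1 on none. The DN and EH prefixes have 2 sequences each, of which 1 DN sequence was detected on none, and the 4 prefixes with 1 sequence each (AL, DJ, FJ and NCBI) had none detected.

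The probes of undetected sequences were mostly dark throughout. The 65 sequences have 273 probes, of which 201 were well above background on no array, 43 on 1 array and 5 on all 10. Their mean values over the arrays lay between -13.2 and -11.9. For 20 sequences no probe was ever well above background. The 447 probes belong to 3 probe sets by their IDs, and the share of probes never well above background was 10% of 20 probes in the set PI415924929, 50.4% of 123 in PI415929188 and 53.3% of 304 in PI415929191. The 20 probes of the first set were each printed on 25 spots, and 110 of the others on 2.

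**Figure D2:**
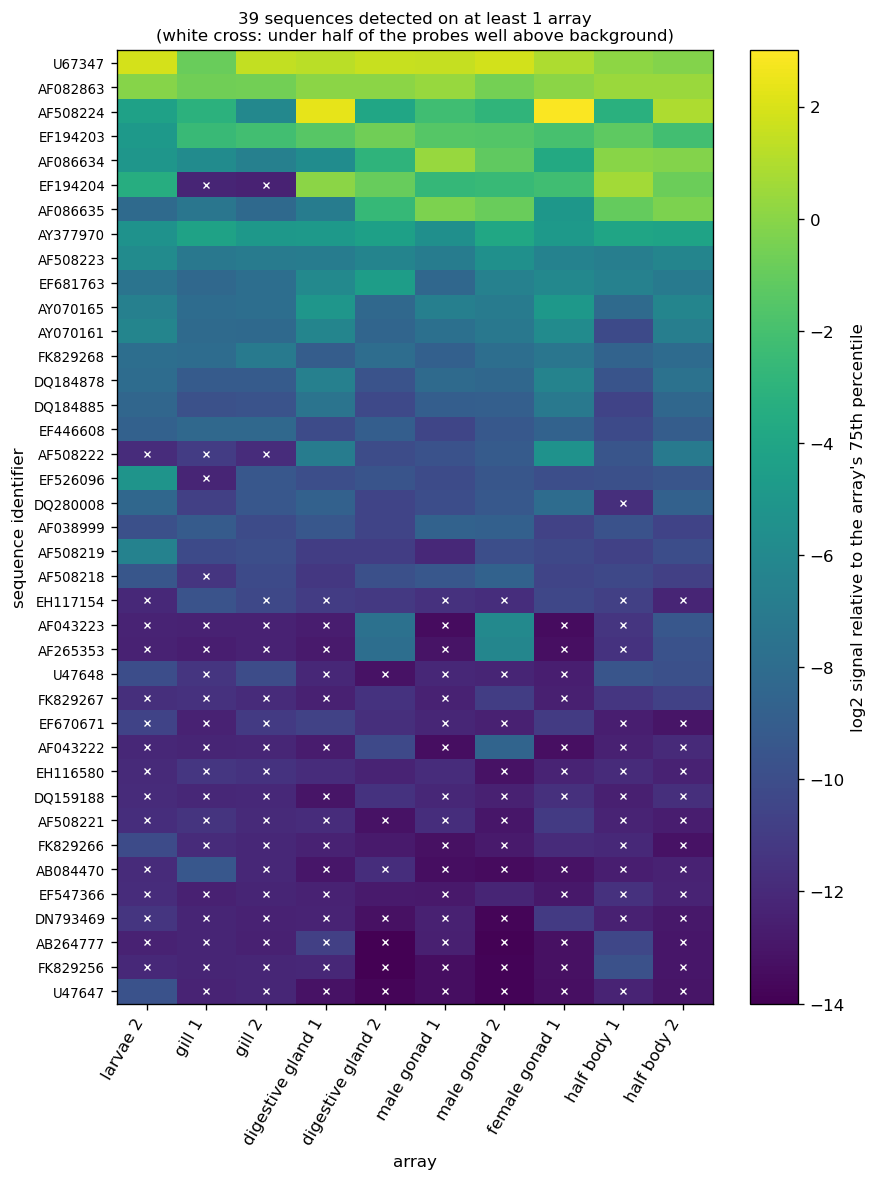
Values (colour, log2 signal, 0 at the 75th percentile of the array) of the 39 sequences detected on at least 1 array (rows, ordered by mean) on the 10 arrays (columns); a white cross marks an array on which the sequence was not detected. EF194204 is crossed on both gill arrays alone, and AF043222, AF043223 and AF265353 are detected on digestive gland 2 and male gonad 2 but not on digestive gland 1 or male gonad 1.

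A sequence was tested where it was detected on all arrays of at least 1 group, which 31 of the 104 passed. The fit covered all 1591 such sequences of the array, with limma and Benjamini-Hochberg adjustment, and a call is an adjusted p below 0.05. Over the 6 groups together, the moderated F test called 1 of the 31, against 2.14% of all sequences tested. That sequence was EF194204 (limma adjusted p = 0.00669). The next smallest adjusted p-values were 0.104 for U47647, 0.118 for AF086634, 0.127 for AF086635, 0.132 for EF194203 and 0.159 for U47648. Then came AF508219 with 0.206, FK829266 with 0.227, EF526096 with 0.273 and AF508222 with 0.313, none of them called. At an unadjusted p under 0.05 there were 9 of the 31, a larger share than the 17.6% of all sequences, and this was not tested.

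EF194204 was bright in every adult sample except gill. It gave 0.01 and -0.94 on the digestive gland arrays, -2.66 and -2.54 on the male gonads, -2.21 on the female gonad and 0.61 and -0.83 on the half-body samples. Larvae 2 gave -3.39. Both gill arrays were not well above background, with measured values of -12.2 and -12.3, far below every other array. As measured, gill differed from the mean of digestive gland and both gonads by -10.52 (SE 0.51, limma adjusted p = 0.000793). Since gill has only a bound, the other dissected tissues were at least 698-fold higher.

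Gill against the other dissected tissues called 1 of the 31 sequences, EF194204, lower in gill. Over all sequences 4.02% were called, 2.33% higher and 1.7% lower. The 31 sequences had a median difference of -0.67, against 0.27 over all sequences tested, and 13 of the 31 differences were positive. Gill against digestive gland alone shares the gill and digestive gland arrays with that comparison. It called EF194204 as well (-11.81, SE 0.60, limma adjusted p = 0.00109, at least 1710-fold higher in digestive gland) and no other of the 31, against 2.51% of all sequences, with 1.01% higher and 1.51% lower in gill.

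All 5 probes of EF194204 gave the same picture, with differences between gill and the other dissected tissues from -11.27 to -10.30. One of them was printed on 25 spots. On the 8 arrays other than gill, all its spots that were not outliers were well above background, 23 to 25 per array, and the SD between spots was 0.04 to 0.099. On gill 1 it was above background on 0 of 22 spots and on gill 2 on 0 of 23. The gill arrays lie on different slides, and within slide 2 the difference was -10.45 for the dissected tissues and -11.40 for digestive gland.

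**Figure D3:**
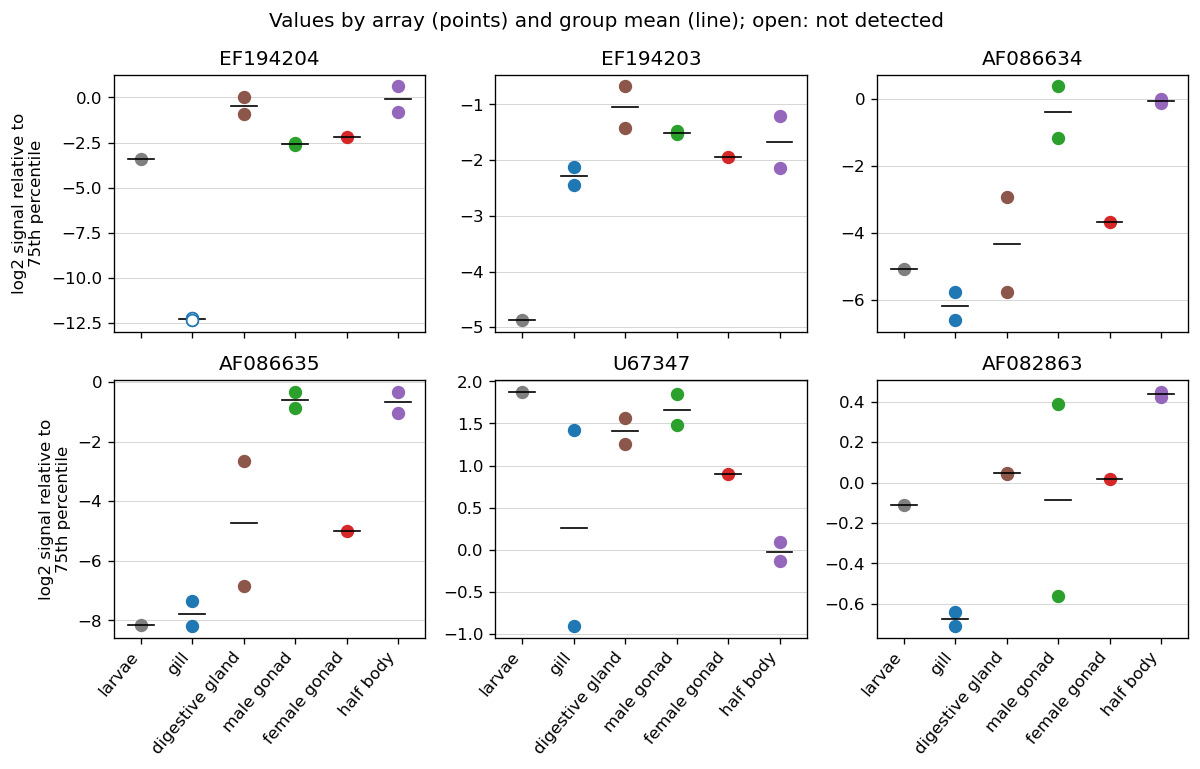
Values (vertical axis, log2 signal, 0 at the 75th percentile of the array, a separate range in each panel) of 6 sequences in the 6 groups (horizontal axis); points are arrays, short lines are group means, open points are arrays on which the sequence was not detected. EF194204 is open and lowest in gill, EF194203 is lowest on the larval array, and the digestive gland pair of AF086635 is spread from -6.85 to -2.63.

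The sequences AF086634 and AF086635, with neighbouring identifiers, were low in gill and high in male gonad and half-body samples, but neither passed the test. AF086634 gave -5.78 and -6.61 in gill, -5.09 in larvae, -5.76 and -2.93 in digestive gland, -3.68 in female gonad, 0.37 and -1.18 in male gonad and 0.00 and -0.13 in half-body samples. AF086635 gave -7.36 and -8.19 in gill, -6.85 and -2.63 in digestive gland, -0.33 and -0.88 in male gonad, -5.01 on the female gonad array, -1.03 and -0.33 in half-body samples and -8.14 in larvae. For both, the 2 male gonad and 2 half-body values lay above all others, while digestive gland 1 differed from digestive gland 2 by -2.83 and -4.22. Gill was below the other dissected tissues by -3.38 for AF086634 (SE 0.89, limma adjusted p = 0.119) and by -4.32 for AF086635 (SE 1.15, limma adjusted p = 0.122). Without digestive gland 1, and likewise without digestive gland 2, AF086635 was called in this comparison.

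Other sequences with an unadjusted p under 0.05 in gill were not called either. U47648 had a difference from the other dissected tissues of 1.76 (SE 0.51, limma adjusted p = 0.145), and AF508222 one of -3.69 (SE 1.1, limma adjusted p = 0.148). Among the arrays of these tissues, only gill 2 detected U47648. U47647 was at 1.23 (SE 0.375, limma adjusted p = 0.153), and no array of these tissues detected it. Undetected probes had medians of -12.3 and -12.24 on the gill arrays, against -14.04 to -13.17 on the digestive gland and gonad arrays. In digestive gland and gonads, the values of U47648 and U47647 were thus at the detection limit. EF681763, given -8.23 and -7.84 in gill and -6.00 and -4.53 in digestive gland, differed between these tissues by -2.77 (SE 0.78, limma adjusted p = 0.194). Its male gonad arrays, -8.30 and -6.54, overlapped the gill values.

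Digestive gland against gonads called 0 of the 31 sequences and 0% of all 1591 with limma. At an unadjusted p under 0.05 there were 1 of the 31 and 29 of all sequences (1.82%). The 1 was EF194204, at 1.94 (SE 0.56, limma adjusted p = 0.997), with both digestive gland arrays above all gonad arrays. AF086634 and EF681763 had the next smallest p-values and were not called.

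Male against female gonad also called 0 of the 31 and 0% of all sequences with limma, with 5 of the 31 and 61 of all (3.83%) at an unadjusted p under 0.05. The comparison sets 2 arrays against 1, which is assumed to vary like the other groups. DN793469 was 1.96 log2 units lower in male gonad as measured (-1.96, SE 0.70), AF086635 was at 4.40 (SE 1.66) and AF038999 at 1.92 (SE 0.74), each with a limma adjusted p of 0.947. AF508222, at -4.11, and AF086634, at 3.27, were the other 2 with an unadjusted p under 0.05. By the share of their probes, DN793469 and AF508221 were detected on the female gonad array alone, and passed the filter only through it. Their medians there, -11.13 and -11.11, were close to the detection limit, with 3 of 5 probes each well above background. Single probes were also well above background elsewhere. Probe CUST_175 of DN793469 was so on 8 arrays. It gave -9.35 in larvae, -9.49 on gill 2 and -9.59 on the female gonad array. CUST_5 of AF508221 was so on both digestive gland arrays, at -10.57 and -11.51, and on the female gonad array, at -11.11.

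Half-body samples against the mean of the dissected tissues called 0 of the 31 with limma, against 0.0629% of all sequences (1 of 1591). At an unadjusted p under 0.05 there were 5 of the 31 and 122 of all (7.67%). EF194204 had the smallest p of the 31, with a difference of 4.28 (SE 0.49, limma adjusted p = 0.0662). In it the gill arrays enter with measured values that were not well above background. With gill raised to the lowest signal well above background the difference was 4.01. The half-body values, 0.61 and -0.83, overlapped those of digestive gland, 0.01 and -0.94. AF086634 and AF086635 were at 3.59 (SE 0.85, limma adjusted p = 0.388) and 3.85 (SE 1.1, limma adjusted p = 0.428), with all 4 and all 5 of their probes higher in half-body samples. U47648 was at 2.34 (SE 0.48, limma adjusted p = 0.385), but only 3 of its 5 probes were higher. EF670671 was the one with a lower value in half-body samples, at -1.23 (SE 0.49, limma adjusted p = 0.64). It was detected on the digestive gland and female gonad arrays only. With the other groups raised to the lowest signal well above background, its difference was -0.415. The labels do not say which part of the animal a half-body sample held.

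The larval group is 1 array, which is assumed to vary like the other groups, so its calls rest on their spread. Against the mean of the dissected tissues it called 2 of the 31 sequences, 1 higher and 1 lower, against 4.65% of all sequences, 3.46% higher and 1.19% lower. At an unadjusted p under 0.05 there were 6 of the 31 and 285 of all (17.9%). EF194203, whose identifier neighbours that of EF194204, was the lower one. It gave -4.88 in larvae, -2.45 and -2.13 in gill, -1.42 and -0.68 in digestive gland, -1.48 and -1.54 in male gonad, -1.94 on the female gonad array and -1.20 and -2.14 in half-body samples. The larval value lay below all 9 adult ones, and the difference was -3.18 (SE 0.51, limma adjusted p = 0.0357). All 5 probes were lower in larvae, by differences from -3.23 to -2.95, and within slide 2 the difference was -3.30. The call was lost in 17 of 22 other settings, with adjusted p from 0.0163 to 0.882.

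U47647 was called higher in larvae, at a difference of 3.46 (SE 0.47, limma adjusted p = 0.0263), or at least 5.1-fold higher, and this rests on 1 probe. The sequence gave -9.70 on the larval array and values from -13.81 to -12.17 on the adult arrays, none of which detected it, so it passed the filter only through larvae. Of its 5 probes, CUST_94 and CUST_138 were well above background on all 10 arrays, and 2 others on none. CUST_139, detected in larvae alone, set the larval median. The larval differences of the single probes ran from 0.42 to 3.57. The 5.1-fold bound therefore applies to the median over probes and is no lower limit for each probe. The call was lost in 14 of 20 other settings.

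Further sequences had an unadjusted p under 0.05 in larvae without being called. AF508219 gave -6.43 in larvae and between -12.04 and -9.92 on the adult arrays, a difference of 4.13 (SE 0.79, limma adjusted p = 0.0517). EF526096 gave -5.21 in larvae and between -12.27 and -9.35 on the others, a difference of 4.86 (SE 1.03, limma adjusted p = 0.0725). The larval value of each lay above all 9 adult values, and all 6 and all 4 of their probes were higher in larvae. FK829266 was at 2.25 (SE 0.52, limma adjusted p = 0.0823) and U47648 at 2.03 (SE 0.64, limma adjusted p = 0.192). The larval value of U47648, -9.98, lay below both of its half-body values, -9.49 and -9.84. AF508219 was called under quantile normalization and when only sequences detected on all arrays were tested, and EF526096 was called with the slide as a block.

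Within tissues, the digestive gland arrays differed most for these sequences. The median absolute difference between the digestive gland arrays over the 31 sequences was 1.05, and 17 of the 31 differed by more than 1 log2 unit. It was 0.40 in gill, 0.66 in male gonad and 0.68 in half-body samples, with 8, 10 and 11 sequences beyond 1 (25.8%, 32.3% and 35.5%). Over all sequences tested, the share beyond 1 was highest in male gonad, at 42.6%, with 27.3% in gill and 36.0% in half-body samples. The digestive gland share beyond 1 was 54.8% of the 31 sequences and 38.2% of all sequences tested, where the median was 0.76. It was 27.4% of EY, 75.4% of AM and 23.2% of AJ sequences, so the 31 lay between the series, as a description with no test.

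A group of sequences was high on the same arrays. Digestive gland 1 exceeded digestive gland 2, and half-body 2 exceeded half-body 1, each by more than 1 log2 unit, for 7 of the 31 sequences (22.6%), against 2.2% of all sequences tested. The shares were 1.19% of EY, 3.43% of AM and 2.68% of AJ sequences. The opposite pattern occurred in 0 of the 31 and in 14 of all 1591. This pattern was chosen after the values were seen and has no test. The 7 are AF508222, AF508224, AY070161, AY070165, DQ184878, DQ184885 and DQ280008, and the differences ran from 1.83 to 6.33 in digestive gland and from 1.87 to 4.06 in half-body samples.

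AF508224 had the widest swing of the 7. It gave 2.37 on digestive gland 1 and -3.96 on digestive gland 2, -3.18 on half-body 1 and 0.88 on half-body 2, -3.07 and -6.05 in gill, -2.21 and -2.88 in male gonad and -4.25 in larvae. Its highest value, 2.92, was on the female gonad. AF508222 gave -6.88 and -10.02 in digestive gland, -9.54 and -6.99 in half-body samples, -9.71 and -9.12 in male gonad and -5.30 on the female gonad array, and was not detected in gill or larvae. In larvae 2 of its 6 probes were well above background, CUST_75 at -5.72 and CUST_76 at -9.58, so the probes disagreed there.

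By the median over probes, all 7 had their highest value on the female gonad array, as had 17 of the 35 sequences of the whole array with this pattern. Of the 31 tested sequences 9 were highest there, against 100 of all 1591. The other 2 of the 9, AF508221 and DN793469, passed the filter only through that array, so the count is partly set by the filter. For DQ184878, as an example of the dimmer ones, the female gonad gave -6.37, digestive gland 1 -6.57 and half-body 2 -7.61, with every other array at -7.97 or below. Single probes did not all follow the medians. Probes CUST_10 of DQ184885, CUST_3 of DQ280008 and CUST_36 of AY070161 were highest in larvae, at -3.09, -3.45 and -4.33. On the female gonad array they gave -4.61, -5.08 and -5.82. CUST_3 gave -5.69 and -6.62 on the digestive gland arrays. None of the 7 was called in any comparison of tissues. The labelled gender is female for digestive gland 1 and male for half-body 2, and a link of the pattern with sex was not tested. Whether the samples held other tissue was not tested.

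**Figure D4:**
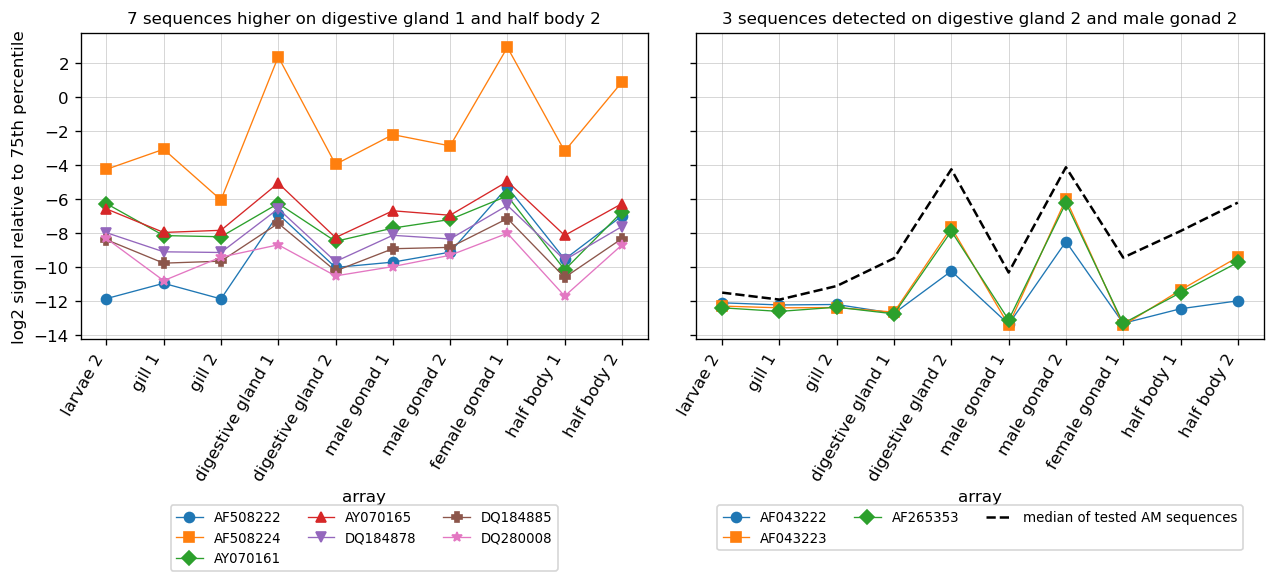
Values (vertical axis, log2 signal, 0 at the 75th percentile of the array) on the 10 arrays (horizontal axis); the left panel shows the 7 sequences higher on digestive gland 1 and half-body 2, the right panel 3 sequences detected on digestive gland 2 and male gonad 2 with the median of the 350 tested AM sequences as a broken line. Each point is 1 array, and lines join the points of a sequence only to guide the eye. In the left panel every sequence is highest on female gonad 1, and in the right panel the peaks of all 3 fall on male gonad 2.

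The sequences AF043222, AF043223 and AF265353 were detected on digestive gland 2 and male gonad 2, and AF043223 and AF265353 on half-body 2 as well. AF043223 gave -7.67 on digestive gland 2, -6.00 on male gonad 2 and -9.41 on half-body 2, and between -13.43 and -11.35 on the other 7 arrays, which did not detect it. AF265353 gave -7.89, -6.23 and -9.73 on the same 3 arrays and between -13.31 and -11.50 elsewhere. AF043222 was detected on digestive gland 2, at -10.23, and male gonad 2, at -8.50, but not on half-body 2, at -11.98.

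No group detected these 3 sequences on all its arrays, so they were not tested. The 350 tested AM sequences had their highest medians on the same arrays, at -4.25 on digestive gland 2, -4.13 on male gonad 2 and -6.21 on half-body 2, against -9.48 on digestive gland 1 and -10.32 on male gonad 1. All 3 arrays are on slide 2, which also held the female gonad, gill 2 and larvae 2, where the 3 sequences were not detected.

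Some of the 17 sequences detected on all arrays varied less between groups than the others. AF082863 gave -0.71 and -0.64 in gill, 0.05 and 0.04 in digestive gland, 0.39 and -0.56 in male gonad, 0.02 on the female gonad array, 0.43 and 0.45 in half-body samples and -0.11 in larvae. Its group means had the smallest SD of the 17 sequences detected on all arrays, 0.36. AY377970, between -5.52 and -3.84, AF508223, between -7.17 and -5.47, FK829268 and EF446608 had the next smallest SDs, 0.42, 0.44, 0.48 and 0.64. The median SD was 0.927 for the 17. For the EY, AM and AJ sequences detected on all arrays it was 0.525, 0.704 and 0.554. Male gonad 1 differed from male gonad 2 by -1.68 for AY377970 and by -1.39 for AF508223. The largest SDs were those of AF086635, AF508224, AF086634, AF508219 and EF194203.

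U67347, with a mean of 0.94 over the arrays, had an uneven gill pair. It gave -0.91 on gill 1 and 1.42 on gill 2, 1.26 and 1.56 in digestive gland, 1.48 and 1.84 in male gonad, 0.90 on the female gonad array, 0.09 and -0.14 in half-body samples and 1.88 in larvae. By the median over probes, gill 1 lay below every other array, and gill 2 lay within the range of digestive gland and male gonad. Its probe CUST_14, printed on 25 spots, gave 0.141 on gill 2. That lay below 0.695 and 1.424 in digestive gland and 1.062 and 1.801 in male gonad. U67347 was not called in any comparison.

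Probes of 1 sequence often disagreed in level. Over the 17 sequences detected on all arrays, the SD among the probes of a sequence ran from 0.08 to 6.31, with a median of 0.97. FK829268, among the least variable of the 17 between groups, shows the wide end. Its probe CUST_691 lay between -0.65 and 0.66 and CUST_692 between -4.89 and -3.22, while the other 2 probes were never detected. Its median therefore averages a bright and a dark probe.

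The probes of AF508224 differed in the size of the swing. Its probe CUST_69 stayed between 0.58 and 3.38 on all 10 arrays, whereas the other 4 probes ran from -8.42 to 3.01. All 5 had their highest value on the female gonad and the next highest on digestive gland 1.

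**Figure D5:**
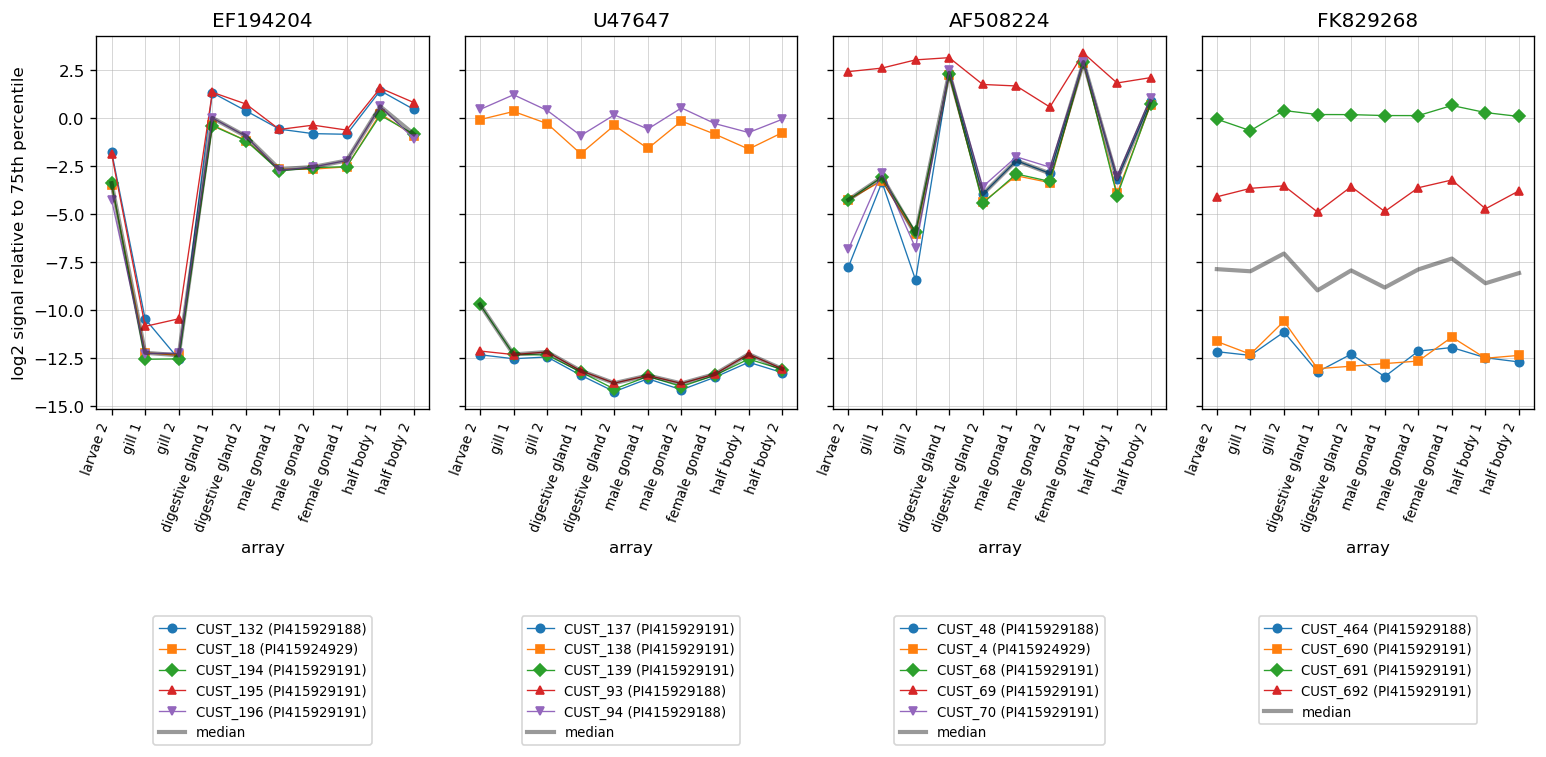
Values (vertical axis, log2 signal, 0 at the 75th percentile of the array) of the single probes of 4 sequences on the 10 arrays (horizontal axis); each coloured line is a probe and the grey line is the median used as the sequence's value. The probes of EF194204 fall together in gill, those of U47647 and FK829268 are split into bright and dark ones, and 1 probe of AF508224 stays high on every array.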

How the data were processed

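Intensity values per spot were deposited as scanner files and, per the file headers, come from Agilent's Feature Extraction software, version 10.5.1.1, with background subtracted within each array. The authors also deposited a table of log2 values. Its scaling was not given in the sources used here. Over all spots, its columns had r of 0.984 to 0.991 with the scanner values, apart from larvae 1 (0.274) and gill 1 (0.578), and it served as an alternative.

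Control and outlier spots were left out, spots of a probe were averaged, and from log2 signals the 75th percentile of 3090 probes was subtracted per array. A probe was well above background where at least 50% of its spots were. Sequence medians entered a model of group means in R 4.3.3 with limma 3.58.1 (lmFit, eBayes), tested on simulated data. Where a group was dim, "at least N-fold" takes, per array, the higher of its own value and the lowest signal well above background. The precision is limited by the number of arrays.

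The members and lists were chosen with earlier results of these data known. Named sequences are those called, else the 3 with the smallest p in a comparison, the 10 with the smallest p over all groups, the 8 with the highest mean, the 5 least and 5 most variable of those detected on all arrays, and those detected in 1 group only. Alternatives were other scalings, normexp background (offset 50, on the median spot signal), filters, probe summaries, all 11 arrays, slide and replicate blocks, the deposited table, a threshold of 0.01 and leaving out each array. Deviations of same-numbered arrays correlated at 0.06 between gill and digestive gland and at 0.05 between gill and male gonad. Between digestive gland and male gonad the correlation was 0.80. These 2 tissues share slide 1 for replicate 1 and slide 2 for replicate 2, while gill 1 is on slide 3. A pairing by sample therefore cannot be told apart from the slide there. The main fit held no term for either.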

Additional observations from a re-analysis of the deposited data

Results flagged for a closer look

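On larvae 1, the array left out of every comparison, 4 of the 447 probes of the 104 sequences were well above background (0.89%). Over the whole array these were 131 of 13654 probes. The 4 are CUST_28 of AB012091 with a signal of 10, CUST_73 of EF670673 with 3.48, CUST_81 of AF508223 with 29.9 and CUST_950 of FK829248 with 9.86. On larvae 2 the same probes gave 3.44, 4.49, 334 and 3.8, so only CUST_81 was clearly brighter there.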

How the results depend on the processing

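The call of EF194204 as lower in gill held in 21 of 22 other settings against the dissected tissues, with differences from -11.11 to -6.25. It was lost in the deposited table alone (-6.25, adjusted p = 0.467 with limma), in which gill 1 departs from its scanner values, and testing only sequences detected on all arrays leaves it out by construction. Counts of the 104 sequences called changed as follows. In larvae (2 called) the count was 0 with median scaling, the percentile over all probes, normexp, all 11 arrays, the deposited table or a threshold of 0.01, and 1 with the mean over probes (EF194203). With a replicate block it was also 1 (U47647), and no other count of these sequences moved with that block. Fitted on single probes, with a sequence called by any probe, it was 16 of 64 sequences, 15 of them higher. That setting takes the smallest adjusted p among the probes of a sequence, for all sequences of the array. Its counts, here and below, are therefore not comparable with those of other settings. The share over all sequences in that setting is not given here, so the count is not read as a trait of these sequences. Over all groups (1 called) the count was 3 with quantile normalization, 4 on single probes, and 0 with detection required on all arrays, all 11 arrays, the slide as a block or the deposited table. Gill against the dissected tissues gave 0 with detection required on all arrays or the deposited table, and 2 with outlier spots kept, where U47648 was added. Gill against digestive gland gave 0 with detection required on all arrays or the deposited table. Half-body samples gave 1 on single probes (EF194204, adjusted p = 0.0327 with limma), and there the difference of U47648 reversed to -0.07. Leaving out 1 array at a time gave 0 to 2 over all groups (0 without gill 1 or without gill 2, 2 without digestive gland 2), 1 to 2 for gill against the dissected tissues, 1 to 1 for gill against digestive gland and 0 to 1 for larvae. Digestive gland against gonads and male against female gonad called 0 of these sequences in all 23 settings. Over all sequences tested, counts ran from 0 to 292 over all groups, 3 to 140 and 3 to 81 in the gill comparisons, 0 to 27 for half-body samples and 0 to 493 for larvae. The causes were not tested. Pairs of arrays limit every value, larvae and female gonad have 1 array, and signals near background have no order.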

Other observations

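Of the 447 probes, 52 (11.6%) were well above background on 1 of the 10 arrays only, close to the 11.3% of all probes of the array. These were most often on larvae 2 (16 probes), gill 2 (12) and half-body 1 (7). Over all probes there were 1544, of which 395 were on larvae 2, 222 on male gonad 2, 217 on gill 2 and 178 on half-body 1. Male gonad 2 had 1 of the 52. Larvae 2 and gill 2 had the lowest 75th percentiles, at 18455 and 18094 signal units.

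Sequences with consecutive identifiers differed in how many were detected. All 6 sequences whose identifiers begin with AF508 were tested, and 3 of them were detected on all 10 arrays. Of 17 sequences beginning with FK829, 3 were tested and 13 were detected on no array.

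At the level of sequences, 4 others were detected on 1 array without passing the filter: AB084470 on gill 1, AB264777 and FK829256 on half-body 1, and DQ159188 on digestive gland 2. EF547366 was detected on digestive gland 2 and male gonad 2, with values of -12.8 and -12.2 that lie at the detection limit.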
